A study of Mus musculus with 6 samples.

Results

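The 8 genes *Tcf7l1*, *Tcf7l2*, *Tcf7*, *Lef1*, *Axin2*, *Ctnnb1*, *Sp5* and *Fzd5* encode a Wnt receptor, β-catenin, an Axin scaffold, the TCF/LEF family and a Wnt-induced transcription factor. OCT4 and NANOG binding at these genes was taken as every ChIP-Seq region that lay within 20 kb of a gene body in the mouse assembly mm9, whatever its binding. This gave 28 of the 23767 regions in the series, at 7 of the 8 genes. OCT4 bound 17 of them in Esrrb-GFP high, 19 in Esrrb-GFP medium and 13 in Esrrb-GFP negative cells, and NANOG bound 11, 3 and 1. Over the whole series, the OCT4 lists held 12449, 14464 and 10369 regions and the NANOG lists 9425, 4729 and 286. The counts near the 8 genes thus rise and fall in the same order as the lists themselves.

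The cells were E-GFPd1, a clonal reporter line of E14Tg2a mouse ESCs cultured in LIF/FCS, in which destabilised GFP is linked by T2a to the end of the *Esrrb* coding sequence, and all libraries share this genotype and medium. Cells were fixed and sorted into Esrrb-GFP high (top 10% of the distribution), Esrrb-GFP medium (15% lying just over the negative gate) and Esrrb-GFP negative fractions, the last of which one label field also calls low. Each factor and fraction has 1 library, made from pooled ChIPs, so there is no spread between replicates and no p-value between fractions. The lists give positions without signal or read counts, so the depth is unknown, and a region missing from a list may still carry weaker binding. The ESC identity of the fractions was not checked, since the lists hold no expression values.

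In the canonical Wnt pathway, a Wnt ligand engages a Frizzled receptor and an LRP co-receptor, which holds back the Axin, APC and GSK3 complex that otherwise marks β-catenin for destruction. β-catenin then enters the nucleus and binds TCF/LEF proteins on Wnt target genes. In mouse ESCs, TCF7L1 (formerly TCF3) is the most abundant family member and is known chiefly as a repressor of pluripotency genes, and inhibition of GSK3 favours naïve self-renewal.

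Of the 28 regions, 4 held an exact octamer, ATGCAAAT, the site of POU factors such as OCT4, within 100 bp of their centre. They are printed on the plus strand of mm9, because the octamer is the sequence that OCT4 itself recognises. Capitals mark the octamer, or the longer Oct-Sox composite motif where it was present. The match at *Lef1* lies on the minus strand.
Tcf7l1 intron, OCT4 in high only, chr6:72597452-72597551: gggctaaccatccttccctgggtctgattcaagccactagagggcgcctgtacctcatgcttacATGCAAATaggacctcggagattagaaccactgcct
Tcf7l1 intron, OCT4 in high, medium and negative, chr6:72708492-72708611: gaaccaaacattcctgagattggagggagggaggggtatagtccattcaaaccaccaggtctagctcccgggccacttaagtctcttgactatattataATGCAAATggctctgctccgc
Tcf7 upstream, OCT4 in high, medium and negative, chr11:52100012-52100111: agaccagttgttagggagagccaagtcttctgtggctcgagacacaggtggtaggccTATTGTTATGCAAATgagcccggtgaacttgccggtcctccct
Lef1 intron, OCT4 in high and medium, chr3:130820992-130821091: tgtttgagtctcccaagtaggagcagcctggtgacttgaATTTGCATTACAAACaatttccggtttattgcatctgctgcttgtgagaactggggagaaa
The Oct-Sox composite was found at *Tcf7* with 1 mismatch and at *Lef1* with 2. All 4 regions with an octamer were bound by OCT4 in high cells, as were 12449 of all 23767 regions of the series. NANOG was listed at none of the 4. OCT4 without NANOG was the commonest kind of region over the whole series as well, at 59.3% of all regions.

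Of the 6 regions bound by both factors in high cells, on which the study's classes rest, the 5 at *Tcf7l1* and *Lef1* are shown next, and the other lay in the UTR of *Fzd5*. In negative cells, neither factor is listed at a Class I region, and OCT4 without NANOG is listed at a Class II region. Capitals mark a match to the KLF motif GGGNGTGG in the Class I region and to the SOX core CATTGT, on the minus strand, in 2 Class II regions. The *Fzd5* region, which was Class II and is not printed, also held an exact match to the KLF motif. For the pair of regions wider than 300 bp, the central 200 bp are given.
Tcf7l1 Class I, intron beside the promoter, chr6:72737652-72737851: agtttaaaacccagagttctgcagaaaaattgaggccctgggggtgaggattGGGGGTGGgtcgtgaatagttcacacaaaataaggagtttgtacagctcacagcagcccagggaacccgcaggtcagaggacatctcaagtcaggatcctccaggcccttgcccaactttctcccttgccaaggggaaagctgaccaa
Tcf7l1 Class II, distal intron, chr6:72627672-72627871: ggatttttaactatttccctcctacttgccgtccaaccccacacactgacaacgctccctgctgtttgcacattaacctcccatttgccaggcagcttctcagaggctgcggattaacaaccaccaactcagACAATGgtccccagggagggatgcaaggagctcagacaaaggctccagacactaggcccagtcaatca
Tcf7l1 Class II, intron, chr6:72703932-72704051: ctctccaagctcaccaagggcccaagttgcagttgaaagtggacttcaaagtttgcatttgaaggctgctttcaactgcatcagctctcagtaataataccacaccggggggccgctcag
Lef1 Class II, upstream, chr3:130805292-130805411: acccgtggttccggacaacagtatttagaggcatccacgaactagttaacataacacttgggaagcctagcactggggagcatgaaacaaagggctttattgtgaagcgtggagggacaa
Lef1 Class II, intron, chr3:130847312-130847431: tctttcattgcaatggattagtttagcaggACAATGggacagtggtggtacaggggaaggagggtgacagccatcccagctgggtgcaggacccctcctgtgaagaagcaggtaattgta
None of these 5 windows held an exact octamer or an Oct-Sox match. Over the series, 7.86% and 6.79% of windows did, so a count of 0 among 5 is near the background.

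**Figure D1:**
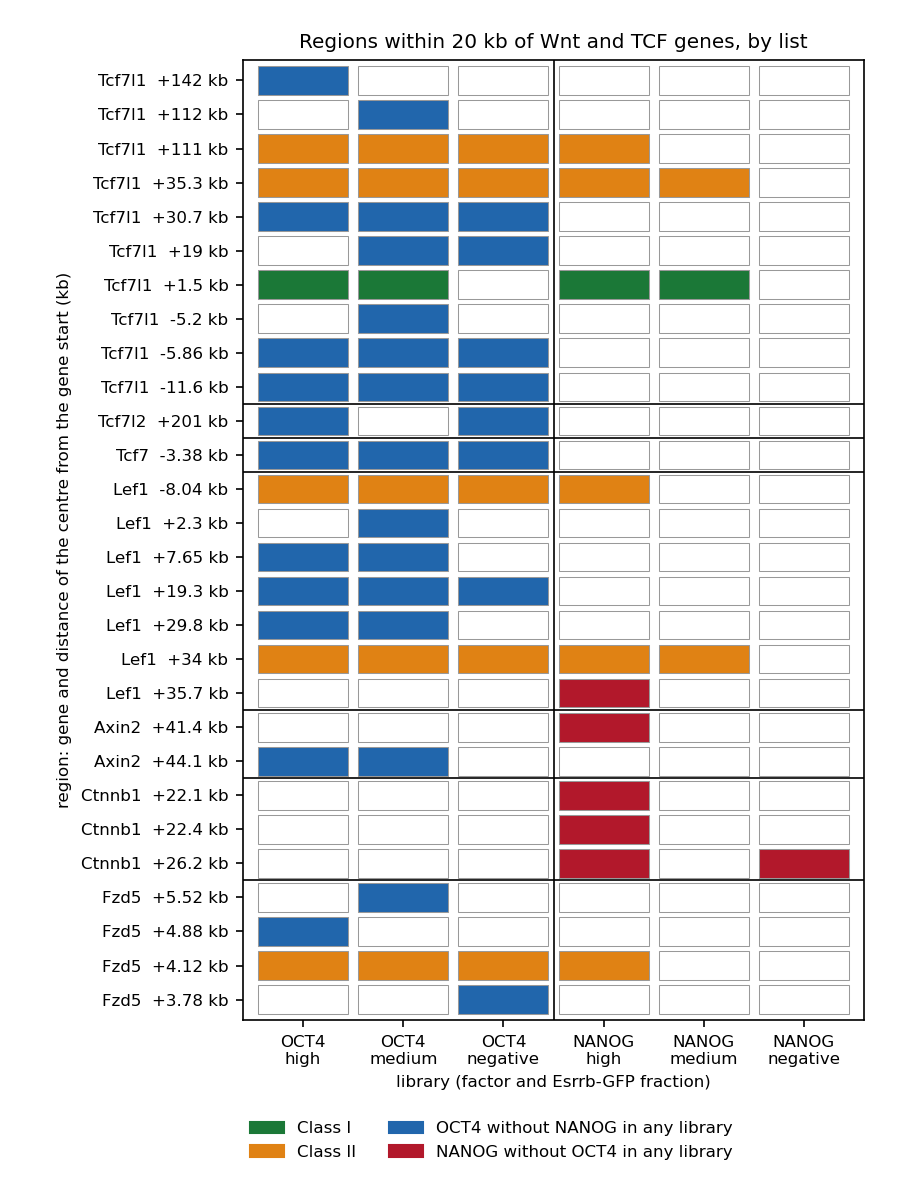
Presence of each region in the 6 lists. Rows are the 28 regions with the distance of their centre from the gene start in kb, columns are the libraries, and a filled box means that the region is in that list. Colours give Class I, Class II, OCT4 without NANOG and NANOG without OCT4. The NANOG negative column holds 1 filled box, at *Ctnnb1*.

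*Fzd5* (ENSMUSG00000045005, chr1:64777134-64784324, minus strand) encodes a Frizzled receptor. It had 4 regions, all within its own 3′ UTR and between 3.78 and 5.52 kb from the gene start. Counted apart, they made it the densest of the 8 genes, with 8.48 regions per 100 kb of gene body and flanks. That rank depends on not merging regions that lie within 500 bp. The region chr1:64780132-64780271 was Class II, with OCT4 listed in the 3 fractions and NANOG in high cells only. At each of the other 3 regions, OCT4 was listed in a single fraction: medium at chr1:64778692-64778911, high at chr1:64779372-64779511 and negative at chr1:64780512-64780571. The negative-only region lay within 500 bp of the Class II region, and the medium-only and high-only regions within 500 bp of each other. Whether they are separate sites was not tested. The same 4 regions also lay within 20 kb of *Ccnyl1*, although *Fzd5* was the closest protein-coding gene to each. Whether they act on either gene was not tested.

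*Ctnnb1* (ENSMUSG00000006932, chr9:120838334-120869625, plus strand) encodes β-catenin, the nuclear effector of the pathway. OCT4 was not listed at *Ctnnb1* in any fraction, and its 3 regions were listed for NANOG alone. All 3 lay within coding exons, and whether these intervals reflect NANOG binding was not tested, since that needs the reads. At chr9:120860412-120860471 and chr9:120860712-120860751, NANOG was listed in high cells only. At chr9:120864452-120864671, NANOG was listed in the high and negative fractions without the medium one, a pattern found at 59 of all regions (0.248%). This is the only region near the 8 genes at which NANOG was listed in negative cells, so that 1 of the 8 genes had such a region, where 0.961% of protein-coding genes did.

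The 3 regions of *Ctnnb1* lay wholly within 3 separate coding exons of 239, 202 and 339 bp, each of which is also annotated as UTR over its whole length in another transcript. Their centres lay 234, 524 and 14 bp from an annotated transcription start of the gene. Of the 28 regions, 5 were centred within 1 kb of a protein-coding transcription start, these 3 among them (17.9%, against 7.22% over the series). Coding sequence makes up 7.53% of the gene body. Over the series, 218 regions (0.917%) were centred in a coding exon, and among regions bound by NANOG without OCT4 they were 42 of 5475 (0.767%). *Ctnnb1* was the only protein-coding gene with 3 or more such NANOG regions in its coding exons, a count made after the positions had been seen. The regions in the exons of 239 and 202 bp lay within 500 bp of each other, and that count takes them as separate. Among the 286 NANOG regions of negative cells, 5 were centred in coding exons (1.75%). *Ulk4* also lay within 20 kb of these regions.

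*Axin2* (ENSMUSG00000000142, chr11:108781663-108812097, plus strand) encodes a scaffold of the destruction complex and is itself a widely used Wnt target. No region lay in the gene or within 20 kb upstream of it. The 2 regions lay downstream, 10.9 and 13.7 kb from the gene body. NANOG was listed at the nearer in high cells only, and OCT4 was listed at the farther, chr11:108825772-108825811, in all but the negative fraction. No region of *Axin2* was therefore listed in negative cells. The NANOG region is printed because it held the motif TAATGG, a NANOG homeodomain site, shown in capitals on the plus strand.
Axin2 downstream, NANOG in high only, chr11:108823012-108823131: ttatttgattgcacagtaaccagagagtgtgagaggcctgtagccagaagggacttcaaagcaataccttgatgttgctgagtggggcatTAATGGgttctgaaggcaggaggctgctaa
Among the 28 regions, this was 1 of 2 with that motif in its window, and the other was at *Ctnnb1*.

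*Sp5* (ENSMUSG00000075304, chr2:70312980-70315786, plus strand), a zinc-finger factor gene induced by Wnt signals, had 0 regions of either factor in any fraction. The nearest region was 73.1 kb from it.

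*Tcf7l1* (ENSMUSG00000055799, chr6:72576372-72739248, minus strand) encodes the repressor TCF7L1. It had the most regions of the 8 genes, 10, and 0.527% of protein-coding genes had as many or more. From high through medium to negative cells, OCT4 was listed at 7, 9 and 6 of its regions, and NANOG at 3, 2 and 0. Its single Class I region, chr6:72737512-72737991, lay in the first part of the gene, 1.50 kb from the gene start and 558 bp from an annotated transcription start. Both factors were listed there in high and medium cells, and the negative lists held neither. With a width of 480 bp it was the widest of the 28 regions.

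The intronic Class II regions of *Tcf7l1* differed in NANOG. At chr6:72627552-72627991, 111 kb from the gene start, NANOG was listed in high cells only, and at chr6:72703932-72704051, 35.3 kb from the start, in high and medium cells. OCT4 was listed in the 3 fractions at both. OCT4 alone was listed in the 3 fractions at 3 further regions, of which 2 lay upstream, 5.86 and 11.6 kb from the gene start, and the other in an intron at 30.7 kb. Between high and negative cells, OCT4 was thus missing at the co-bound region beside the promoter and listed at both co-bound regions farther into the gene.

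The remaining 4 regions of *Tcf7l1* carried OCT4 in part of the fractions. At chr6:72720172-72720331, OCT4 was listed in medium and negative cells but missing from high cells. It was listed in medium cells only at chr6:72627212-72627351 and chr6:72744432-72744471, and in high cells only at chr6:72597452-72597551, whose octamer is shown above. Each medium-only region lay within 1 kb of a region bound in the 3 fractions.

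*Lef1* (ENSMUSG00000027985, chr3:130813389-130927274, plus strand) encodes a TCF/LEF factor that mostly activates its targets with β-catenin. It had 7 regions, and 1.63% of protein-coding genes had as many or more. In the same order of fractions, OCT4 was listed at 5, 6 and 3, and NANOG at 3, 1 and 0. Both co-bound regions were Class II. At the upstream region, 8.04 kb before the gene start, NANOG was listed in high cells only, and at the intronic region 34.0 kb into the gene, in high and medium cells. OCT4 without NANOG was listed in the 3 fractions at 19.3 kb, and in high and medium cells only at 7.65 and 29.8 kb. OCT4 was listed in medium cells only at chr3:130815672-130815711, 24 bp from an annotated internal transcription start, and NANOG in high cells only at chr3:130849052-130849131. All regions inside *Lef1* lay in the first 35.7 kb of a gene of 114 kb.

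*Tcf7l2* (ENSMUSG00000024985, chr19:55816300-56008144, plus strand) and *Tcf7* (ENSMUSG00000000782, chr11:52065873-52096681, minus strand) had 1 region each, and 46.4% of protein-coding genes had as many or more. *Tcf7l2*, the longest of the 8 genes at 192 kb, had no region in its body. Its region, chr19:56017532-56017571, lay 9.39 kb downstream and was listed for OCT4 in the high and negative fractions alone. At *Tcf7*, the region with the Oct-Sox match lay 3.38 kb upstream and was listed for OCT4 in the 3 fractions. NANOG was not listed near either gene. The regions of the TCF/LEF family thus lay mainly at *Tcf7l1* and *Lef1*, which held 17 of the 19 family regions.

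**Figure D2:**
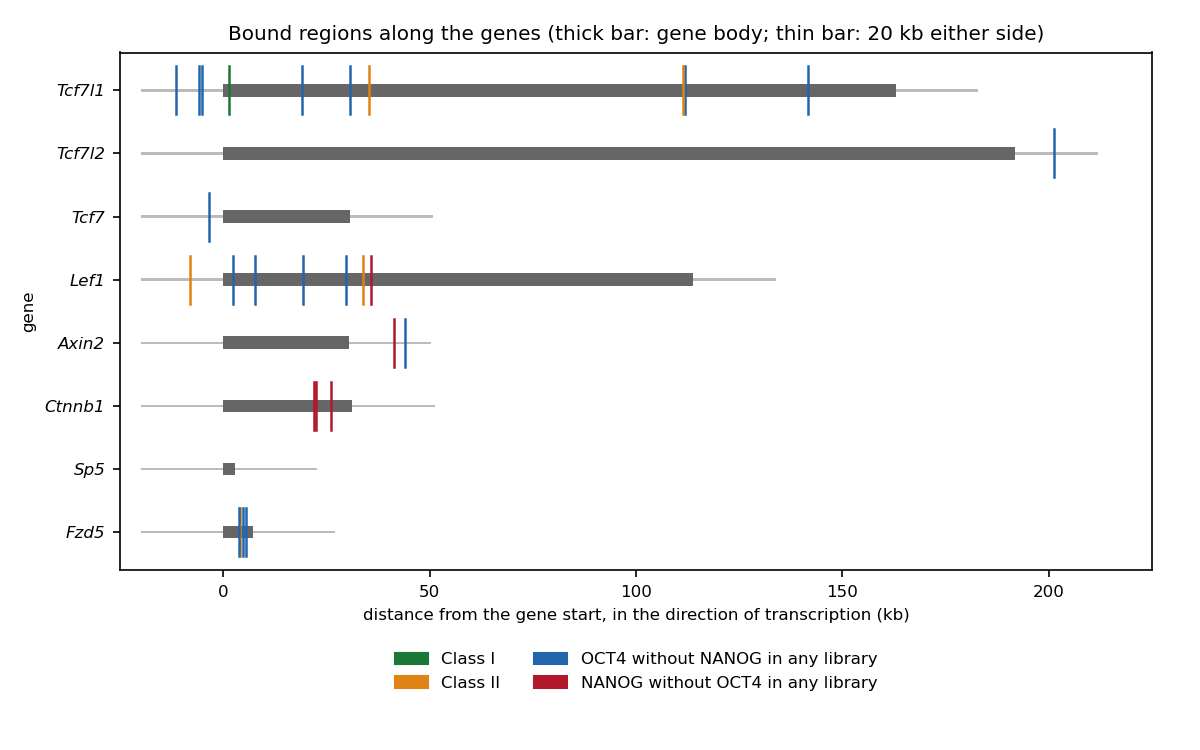
Positions of the 28 regions along the 8 genes. The horizontal axis is the distance from the gene start in kb in the direction of transcription, thick bars are gene bodies, thin bars the 20 kb flanks, and vertical ticks region centres coloured by class. *Tcf7l1* and *Lef1* carry most ticks, *Sp5* carries none, and the 4 ticks of *Fzd5* nearly coincide.

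**Figure D3:**
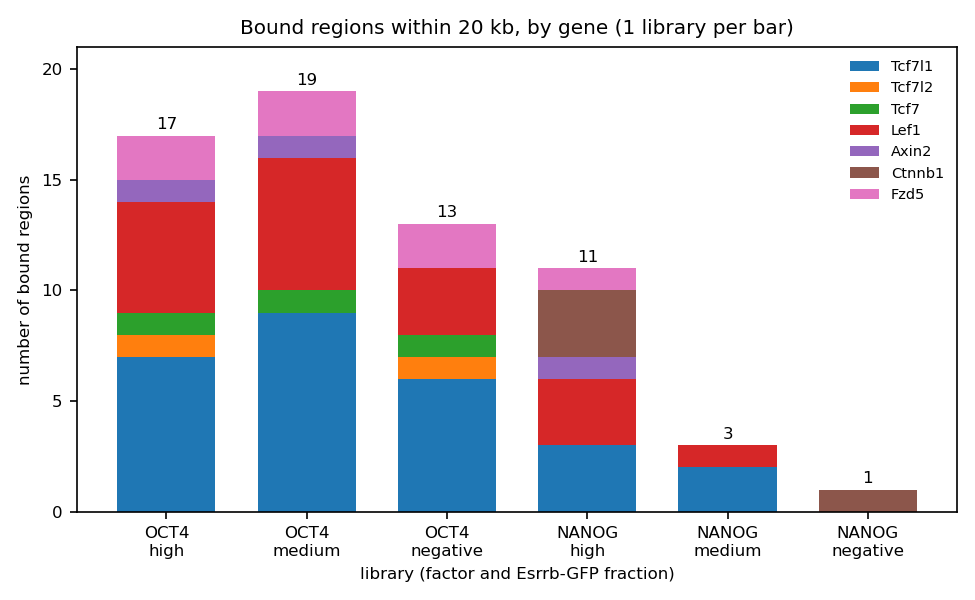
Number of bound regions in each of the 6 libraries, stacked by gene. Each bar is 1 library, so no error is drawn. The OCT4 bars reach 17, 19 and 13 and the NANOG bars 11, 3 and 1 in high, medium and negative cells. The whole lists, not drawn, hold 12449, 14464 and 10369 OCT4 and 9425, 4729 and 286 NANOG regions.

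The members were next compared with all regions of the series, with 95% Wilson intervals that cover counting error over regions only. Of the 17 OCT4 regions of high cells, 14 were also listed in medium cells, 82.4% (59.0 to 93.8), against a background of 78.7%. In negative cells, 11 were listed, 64.7% (41.3 to 82.7), against 54.9%. Of the OCT4 regions of negative cells, those missing from high cells were 2 of 13, 15.4% (4.33 to 42.2), against 34.1%. OCT4 was listed in the 3 fractions at 10 of its 23 regions, where the background was 31.3%, and in medium cells only at 4, where it was 12.6%. Each of these intervals holds the background share, so a difference for OCT4 was not detectable with this number of regions.

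For NANOG, 3 of the 11 regions of high cells were listed in medium cells, 27.3% (9.75 to 56.6), against 47.7%. In negative cells, 1 was listed, 9.09% (1.62 to 37.7), against 2.51%. Co-binding in high cells was found at 6 regions, 35.3% (17.3 to 58.7) of the OCT4 and 54.5% (28.0 to 78.7) of the NANOG regions, against 29.5% and 39.0%. These intervals also hold the background share.

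Of the 6 co-bound regions, 5 were Class II, 83.3% (43.6 to 97.0), and 1 was Class I, 16.7% (3.01 to 56.4). Over the series the shares were 42.6% for Class II and 55.3% for Class I. The lower bound for Class II is just above the background, but the 6 regions lie at 3 genes and are not independent. With a distance of 5 kb there were 4 Class II regions and 1 Class I region, and with 50 kb 6 and 2. The higher share thus rests on few regions and on the distance chosen. OCT4 without NANOG in any library was found at 17 of the 28 regions (background 59.3%), and NANOG without OCT4 at 5 (background 23.0%).

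**Figure D4:**
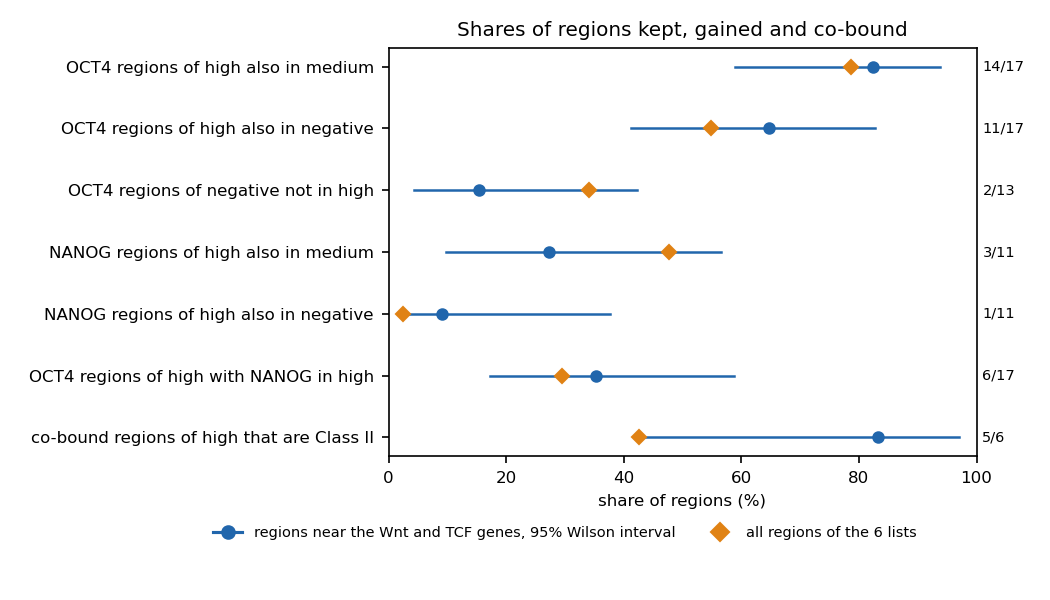
Shares of regions kept, gained and co-bound. Circles are the regions near the 8 genes with 95% Wilson intervals, diamonds are all regions of the 6 lists, the horizontal axis is the share in %, and counts stand at the right. The diamond lies inside the interval in every line but the last, where the Class II share of co-bound regions is 5 of 6 against 42.6%.

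By gene, 7 of the 8 had a region within 20 kb, where 46.4% of 22380 protein-coding genes did. OCT4 of high cells was listed near 6, where the background was 31.5%, and NANOG of high cells near 5, where it was 23.3%. A Class I region lay near 1 gene (background 6.97%), and a Class II region near 3, *Tcf7l1*, *Lef1* and *Fzd5* (background 5.02%). The 8 gene bodies with their flanks held 3.14 regions per 100 kb, against 1.12 for all protein-coding genes. Long genes span more sequence, and the 8 genes were picked as a pathway of interest in ESCs, so these figures describe the genes.

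**Figure D5:**
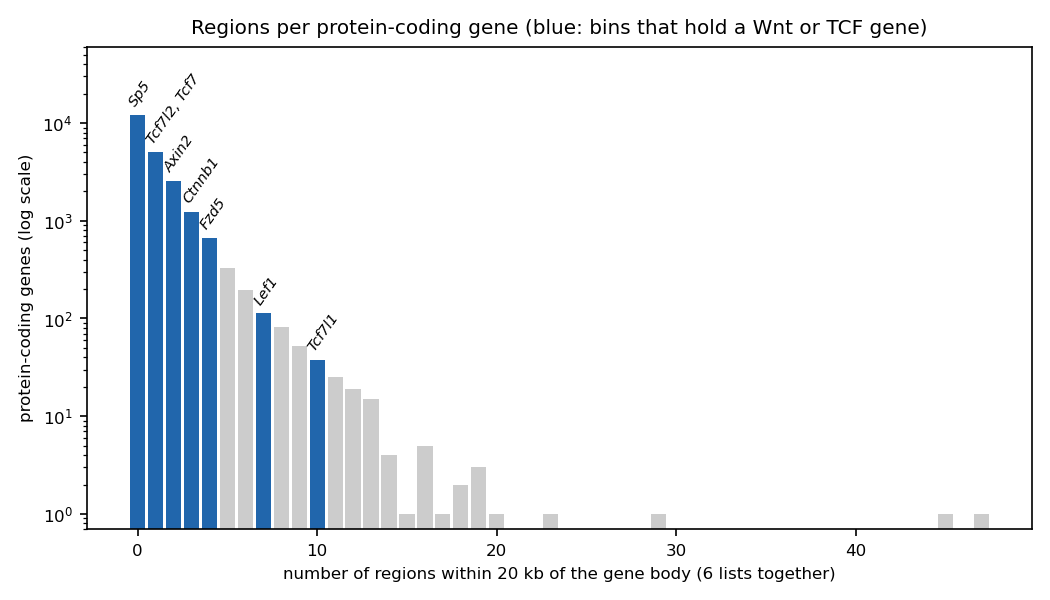
Number of protein-coding genes (log scale) by the number of regions within 20 kb of the gene body, all lists together. Blue bins hold a Wnt or TCF gene, whose name is given. *Tcf7l1*, with 10 regions, lies among the 0.527% of genes with as many or more.

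The regions near the 8 genes had a median width of 110 bp (range 40 to 480), against 80.0 bp over the series, and a median GC content of 50.5%, against 48.3%. By the position of the centre, 13 lay in introns, 4 in a UTR, 3 in coding exons and 8 outside protein-coding genes. Exonic positions came from *Fzd5* and *Ctnnb1* alone. Over the series, 37.2% of regions were centred in introns, 1.83% in UTRs and 59.6% outside protein-coding genes.

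Motifs were searched on both strands within 100 bp of each centre, and each share is set beside that of all 23767 windows of the same length. The octamer was found at 14.3% (5.70 to 31.5) against 7.86%, and the Oct-Sox composite, with up to 2 mismatches, at 7.14% (1.98 to 22.6) against 6.79%. The octamer share was the same with 50 and 250 bp either side, against 5.54% and 10.6%. With 50 bp its lower bound is just above the background. The SOX core, whose letters overlap the Oct-Sox composite, was found at 17.9% (7.88 to 35.6) against 17.2%, and TAATGG at 7.14% (1.98 to 22.6) against 9.52%. The KLF motif was found at 7 regions, 25.0% (12.7 to 43.4), against 11.9%, of which 4 were at *Tcf7l1*, 2 at *Fzd5* and 1 at *Lef1*. With windows of 50 bp either side it was 17.9% (7.88 to 35.6) against 6.05%, and with 250 bp 42.9% (26.5 to 60.9) against 22.8%. For the KLF motif, the lower bound is above the background in each case. The regions with a KLF motif or an octamer share few genes and are not independent. The ESRRB motif TCAAGGTCA with up to 1 mismatch was found at 1, the *Lef1* region at 29.8 kb, 3.57% (0.633 to 17.7) against 11.2%.

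The TCF/LEF motif CTTTGAT, bound by the products of 4 of the genes themselves, was found at 2 regions, 7.14% (1.98 to 22.6), against 5.10%. With windows of 250 bp either side, the share stayed at 7.14% while that of all regions was 10.1%, so the order turned, and the shorter motif CTTTGA gave 21.4% against 19.0%. The 2 regions with CTTTGAT were the medium-only region upstream of *Tcf7l1* and the farther downstream region of *Axin2*. The first match lay just past the end of the listed interval and the second across its edge. A match is a sequence description and was not tested for binding.

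Other genes of the pathway were taken from a list of 86, of which 46 had a region within 20 kb (53.5%, against 46.4% of protein-coding genes). OCT4 of high cells was listed near 31 (36.0%, against 31.5%) and NANOG of high cells near 25 (29.1%, against 23.3%). Near these 86 genes, 28 of 54 OCT4 regions of high cells were listed in negative cells, 51.9% (38.9 to 64.6), against 54.9% over the series. For NANOG, it was 0 of 45, with a Wilson upper bound of 7.87%, against 2.51%. With 3 counts as the limit that a count of 0 allows, the bound is 6.67%, and both cover counting error only. Class I regions lay near 9 of the 86 genes (10.5%, against 6.97% of protein-coding genes) and Class II regions near 6 (6.98%, against 5.02%). Of the 18 co-bound regions of high cells near these genes, 7 were Class II, 38.9% (20.3 to 61.4), against 42.6% over the series. Class I made up 11, 61.1% (38.6 to 79.7), against 55.3%. Both intervals hold the series share, and the Class II share near the 8 genes rests on only 6 co-bound regions.

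Among receptors and co-receptors, 7 of 14 genes had a region (46.4% of protein-coding genes did) and 5 had a Class I region (35.7%, against 6.97%). *Ror2*, a receptor of non-canonical Wnt signals, had 9 regions, of which 1 was Class II and none Class I. *Fzd8* had 5 regions, with 1 of each class, *Ror1* had 4 with 2 Class I, and *Fzd7* and *Fzd10* had 3 each with 1 Class I. In the R-spondin module, which sets the level of Wnt receptors at the membrane, 4 of 9 genes had a region (44.4%). The R-spondin receptor gene *Lgr4* had 6 regions, with 1 of each class, and *Lgr5* had 2, both Class II. The shares of the 9 genes were thus 11.1% for Class I, against 6.97%, and 22.2% for Class II, against 5.02%.

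Of the 19 Wnt ligand genes, 12 had a region (63.2%, against 46.4% of protein-coding genes). *Wnt8a* (5 regions, 1 of each class) and *Wnt5b* (4 regions, 1 Class II) had classed regions. The shares of ligand genes were thus 5.26% for Class I, against 6.97%, and 10.5% for Class II, against 5.02%. In the destruction complex, 7 of 11 genes had a region (63.6%) and 0 of the 11 a Class I or Class II region, where 6.97% and 5.02% of all protein-coding genes had one, so that a count of 0 among so few genes is near the background. Among nuclear cofactors, 7 of 13 had a region (53.8%). The co-repressor genes *Tle3* (7 regions, 2 Class I) and *Tle1* (4 regions, 1 Class I) had classed regions, 15.4% of the 13 genes against 6.97%. For secreted inhibitors the count was 6 of 12, for ligand secretion 2 of 3 and for cytoplasmic transducers 1 of 5, and the counts of Class I and Class II regions were 0 in these small groups.

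The gene with the numbers of regions most like those of *Tcf7l1* over the 6 lists was *Pdzd2*, with OCT4 at 7, 8 and 5 and NANOG at 3, 2 and 0 regions, a summed absolute difference of 2. For *Lef1*, it was *Grik3*, with OCT4 at 5, 5 and 3 and NANOG at 3, 1 and 0, a difference of 1. The measure counts regions per list and takes no account of their position or of co-binding. *Pdzd2* had 13 regions in all and no Class I or Class II region, unlike *Tcf7l1*. *Grik3* had 9 regions in all and, like *Lef1*, Class II but not Class I.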

How the data were processed

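OCT4 and NANOG ChIP-Seq was performed in 3 sorted fractions of E-GFPd1 ESCs, 1 library per factor and fraction, and libraries were grouped by antibody and fraction as their titles give them. The deposited lists hold start and end positions, a unit listed as other, without score, count or signal. The authors aligned reads in GeneProf (Bowtie and mm9 per the submitters' processing notes), used SISSRs as peak caller, combined peaks that overlapped between datasets, and scored binding as lost below 50% of the region's strongest signal after correction for depth. Presence therefore depends on that threshold. Versions are not given in the sources used here.

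Intervals overlapping by 1 bp or more were merged, which left all 23767 distinct intervals as they were. Gene bodies came from GENCODE vM1 on NCBIM37, which is mm9 (37310 genes, 22380 protein-coding, all 8 symbols matched), and all intervals fitted its chromosome lengths. Positions are counted from 1. Named genes are the 8 genes with every region within 20 kb, the gene nearest in counts to a gene with 5 or more regions and over 1 Mb away, and listed pathway genes with a Class I or II region, at most 5 per group, those with most regions first. The 86 listed symbols all matched, older symbols through RefSeq synonyms. The genes and lists were chosen with earlier results of these data known. Shares have 95% Wilson intervals. No test between fractions was possible.

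Alternatives were distances of 5, 10 and 50 kb, merging within 100 or 500 bp, a width threshold, the closest gene only, 50% overlap without merging, other motif windows and mismatch limits and, added after the data had been seen, leaving out *Tcf7l1*. Functions were tested on simulated lists of 5000 regions, and 21 of 21 known answers were recovered. Python 3.11.15, numpy 2.4.6, statsmodels 0.14.6 and matplotlib 3.10.9 were used.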

Additional observations from a re-analysis of the deposited data

How the results depend on the processing

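No paired analysis was possible because only 1 library represents each factor and fraction. The 28 regions became 21, 25 and 39 with distances of 5, 10 and 50 kb, 23 when regions within 500 bp were merged and 19 when intervals narrower than their list's median were dropped. The share of OCT4 regions kept in negative cells ranged from 58.3% to 66.7% and that of NANOG regions from 6.67% to 12.5% over all alternatives. Without *Tcf7l1*, 18 regions, 0 Class I and 3 Class II regions remained, since that gene holds the only Class I region. With 50 kb, Class I regions numbered 2, the second of which lies 28.9 kb upstream of *Tcf7l2*. Octamer matches with 1 mismatch were found at 35.7% of regions, against 38.9% over the series. The ESRRB motif was found at 0 regions with windows of 50 bp either side, against 5.34% over the series, and at 0 with no mismatch, against 1.39%. The Wilson upper bound for 0 of 28 is 12.1%, so neither count differs detectably from the background. With 1 library per condition and unknown depth, no change between fractions can be set against experimental error, and shares over 17 or fewer regions have wide intervals.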

Other observations

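Beyond the distance limit, *Lef1* had a medium-only OCT4 region 22.0 kb downstream, inside *Hadh*, and a Class II region 25.5 kb upstream at chr3:130787712-130787851, for which *Lef1* was the closest protein-coding gene. The farthest region inside the limit was that of *Axin2* at 13.7 kb. *Tcf7l2* had a Class I region 28.9 kb upstream at chr19:55787352-55787431, where OCT4 was listed in high cells and NANOG in high and medium cells. *Tcf7* had a NANOG region, listed in high and medium cells, 24.5 kb downstream and nearest to *Skp1a*, and a Class I region 57.0 kb upstream and nearest to *Vdac1*. The 3 regions within 100 kb of *Sp5* lay 73.1 to 91.0 kb downstream, and *Gad1* was their closest gene. *Axin2* had an OCT4 region 33.2 kb upstream, listed in the 3 fractions and nearest to *Ccdc46*. Regions beyond 20 kb are not among the 28, and those within 50 kb enter the counts given above for that distance.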
